A study of Mus musculus with 6 samples.

Results

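AP-1 is a family of paired transcription factors, built from proteins of the Fos, Jun and Atf groups that join through a leucine zipper and bind short sites in the promoters of their target genes. Many of these genes, though not Jund, which is little induced by stimuli, belong with Egr1, Ier2, Klf4 and Myc to the immediate-early class. Transcripts of this class are made without new protein synthesis after a hormone, a growth factor or nerve input reaches a cell, and then decay fast. In the adrenal gland corticotropin induces such genes in the steroid-making cortex, and splanchnic nerve input induces them in the catecholamine-making medulla. The genes described are Fos and Fosb, Jun, Junb and Jund, the Atf group gene Atf3, the zinc finger genes Egr1 and Klf4, the nuclear early response gene Ier2, and Myc. Every probe set whose platform annotation names exactly 1 gene, and that gene is one of these 10, was taken, which gave 16 of the 12488 probe sets on the array. The other probe sets naming exactly 1 gene bring the genes measured in this way to 8252. A probe set is a group of short oligonucleotides that together query 1 transcript.

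The study measured whole adrenal glands of 2 mouse strains, BPH, the hypertensive strain ("Blood Pressure High"), and BPL, the hypotensive strain ("Blood Pressure Low"). RNA was hybridised to 3 Affymetrix MG_U74Av2 arrays per strain. Age, sex, treatment and any pooling of animals are not given in the sources used here, and nothing states that the 3 arrays of a strain came from separate animals, so p-values measure the spread between arrays. The comparison asks which transcripts differ between BPH and BPL glands.

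The values are intensities on a linear scale, which the authors had scaled to a common level per array, and the number of arrays limits the precision. Markers of the adrenal cortex were present on all arrays, with a summed intensity of 8 genes between 665622 and 779526 in BPH and between 668903 and 734310 in BPL. The summed intensity of 7 medulla markers lay between 243628 and 303992 in BPH and between 132261 and 270245 in BPL. BPH 1 and BPL 2 stood apart by skeletal muscle transcripts, with a summed intensity of 8 markers of 152649 and 154569, against 9556 to 23476 on the other 4 arrays. The summed intensity of 7 brown fat markers lay between 37233 and 64585 in BPH and between 101098 and 293768 in BPL, and 1 of the 5 tested was called, lower in BPH. Fibroblast and capsule markers summed to between 68997 and 69273 in BPH and between 56990 and 60375 in BPL over 8 genes, with none of the 7 tested called. None of the markers on these lists is at 0, and the part of these tissues in the results below was not tested except where an analysis without arrays is given. Macrophage markers summed to between 18111 and 18644 in BPH and between 16090 and 18873 in BPL over 8 genes, and endothelial markers to between 35067 and 36801 in BPH and between 35020 and 37299 in BPL. The sums of general fat, lymphocyte, smooth muscle and blood markers also overlapped between the strains, with none called. Of 8 kidney markers 1 could be tested, the drug-metabolising gene Cyp2e1, which was called higher in BPH (1.48 on the log2 scale, adjusted p = 0.00246). The kidney sum, most of it Cyp2e1, lay between 64399 and 91864 in BPH and between 28809 and 31092 in BPL, and the other 7 markers lay under the filter. In whole glands fewer cells of a type and less RNA per cell cannot be told apart.

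The promoters of both Fos genes and of Jun and Junb are shown first, since the results set these relatives side by side. Each sequence is from RefSeq on GRCm38.p6, 5′ to 3′ on the gene's strand, and runs from 160 bases before the annotated transcript start to 20 bases after it. Capitals mark matches on either strand. The short motif TGACG is the core shared by cAMP response elements. TATAAA is the TATA box sequence. The variant AP-1 site known from the Jun promoter reads TGACATCA.
Fos (chr12:85473730-85473909, plus strand): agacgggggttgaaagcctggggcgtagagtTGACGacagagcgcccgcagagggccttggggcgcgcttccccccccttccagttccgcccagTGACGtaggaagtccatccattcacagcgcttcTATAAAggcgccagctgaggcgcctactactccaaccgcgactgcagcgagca
Fosb (chr7:19310026-19310205, minus strand): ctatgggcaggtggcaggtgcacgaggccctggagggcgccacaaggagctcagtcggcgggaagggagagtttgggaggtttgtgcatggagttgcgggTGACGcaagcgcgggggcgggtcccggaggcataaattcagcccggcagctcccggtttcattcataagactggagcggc
Jun (chr4:95052203-95052382, minus strand): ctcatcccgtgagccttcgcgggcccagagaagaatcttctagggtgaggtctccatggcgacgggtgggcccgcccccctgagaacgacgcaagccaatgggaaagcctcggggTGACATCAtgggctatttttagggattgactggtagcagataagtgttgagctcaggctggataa
Junb (chr8:84978729-84978908, minus strand): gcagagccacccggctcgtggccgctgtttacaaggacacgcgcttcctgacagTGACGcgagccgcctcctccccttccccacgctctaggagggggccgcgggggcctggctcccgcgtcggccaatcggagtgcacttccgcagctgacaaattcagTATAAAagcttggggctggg

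A promoter window of 300 bases, 250 before the start and 50 after it, was in hand for 7 of the 10 genes, all but Egr1, Ier2 and Myc. Of these 7, 5 held the core motif TGACG (Fos, Fosb, Junb, Atf3 and Klf4), against 20.8% of all 32851 windows. This motif and TGACATCA were chosen after the promoters were seen, so their counts beside these shares are no evidence of enrichment. TATAAA was found in Fos and Junb, against 13.6% of all windows, and TGACATCA in Jun, against 3.62%. Klf4 held the E-box CACGTG, found in 7.15% of windows. None of the 7 held the full cAMP response element TGACGTCA (1.79% of windows), which contains TGACG, or the AP-1 site TGACTCA (5.2%). GCGTGGGCG, an Egr site (0.612%), and a CArG box, to which serum response factor binds (1.63%), were also not matched in these windows. In Junb the TATA match begins at base 1 of the annotated transcript, whereas in Fos it begins 33 bases before the start. The core motif is present in Fos, Junb and Klf4, which were called higher in BPH below, and also in Fosb and Atf3, which were not called.

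Junb, Fos, Klf4 and Ier2 were higher in BPH glands, by 1.92-fold for Ier2 to 7.46-fold for 1 of the Junb probe sets. That Junb probe set passed the filter on low values only through its BPH arrays. The other Junb probe set differed by 2.53-fold. Jun, Jund, Fosb, Egr1, Atf3 and Myc were not called. Of the 16 probe sets, 11 passed the filter on low values and were tested, and these cover all 10 genes. Of the 11, 5 were called at an adjusted p under 0.05 in limma, all higher in BPH, where 2.52% of the 7293 probe sets tested were called in either direction, 1.56% higher and 0.96% lower. For these 5 the lowest BPH array stood above the highest BPL array, and the other 6 of the 11 overlapped. Over all probe sets tested, 14.9% had BPH above BPL in this way. The 5 were picked by their calls, which rest on the same arrays, so the separation is no further support. The median log2 difference of the 11 was 0.47, beside 0.03 over all probe sets tested. These counts describe a small set of related genes that was chosen with results of these arrays known. Fold changes are BPH over BPL on the log2 scale with a floor under low values, and adjusted p-values are from limma over all 7293 probe sets.

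**Figure D1:**
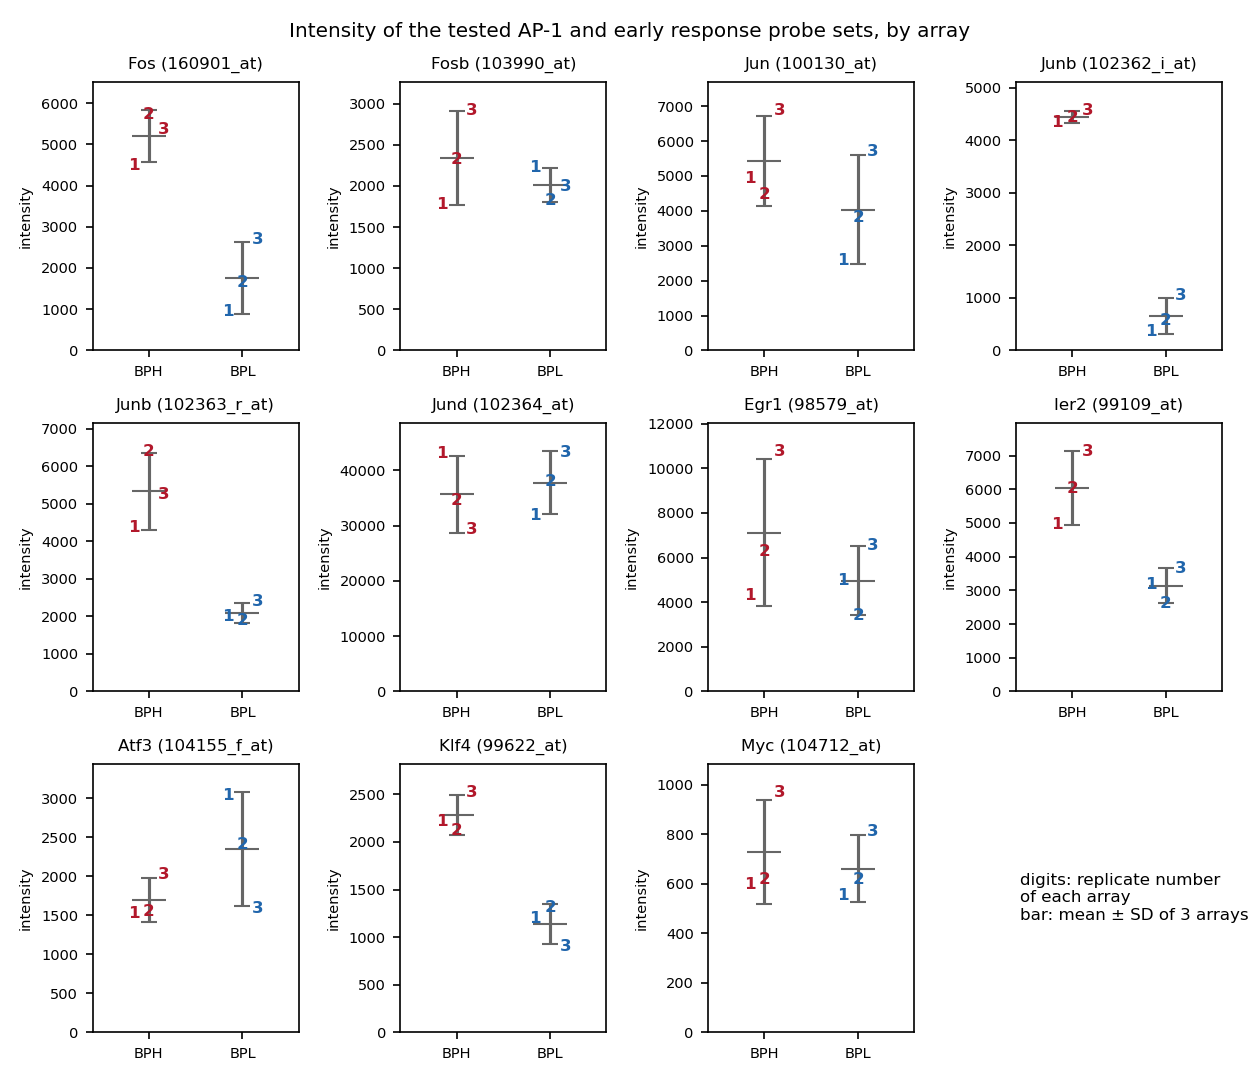
Intensity of each tested probe set (vertical axis, linear scale from 0) on the 3 BPH and 3 BPL arrays, with digits giving the replicate number and bars the mean ± SD of a strain. The strains separate for Fos, both Junb probe sets, Ier2 and Klf4, and overlap in the other 6 panels.

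Junb encodes a Jun protein that pairs with Fos proteins and can restrain c-Jun, and it had the largest difference among the tested probe sets of these genes. On the probe set 102362_i_at the intensity was 4341, 4439.8 and 4574 on BPH 1, 2 and 3, against 362.1, 562.5 and 1041 on BPL 1, 2 and 3. All BPH arrays lay within a narrow band and far above the BPL arrays, among which BPL 3 was the highest. The log2 difference was 2.90 (SE 0.33, adjusted p = 0.0038), a 7.46-fold difference with a 95% confidence interval of 4.42 to 12.6. It ranked at position 5 from the top among the 7293 log2 differences. The BPL mean of 655.0 ± 348.5 (SD, n = 3) lay under the filter intensity of 668.1, so this probe set passed the filter through its BPH arrays. On the other Junb probe set, 102363_r_at, the intensity was 4357, 6401 and 5249.8 on BPH 1, 2 and 3, against 1993, 1896 and 2396 on BPL 1, 2 and 3. The strains were again separate, and here both strains lay well above the filter. Its log2 difference was 1.34 (SE 0.17, adjusted p = 0.00633), or 2.53-fold with a 95% confidence interval of 1.92 to 3.32. The pair moved the same way but differed in size, with confidence intervals that do not overlap. In the array's naming the suffixes i and r mark probe sets for which usual rules of probe choice were relaxed.

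Fos encodes c-Fos, which binds DNA when paired with a Jun protein. On the probe set 160901_at it had an intensity of 4492, 5721 and 5368 on BPH 1, 2 and 3, against 953.1, 1637 and 2686 on BPL 1, 2 and 3. The strains did not overlap, and the BPL arrays were spread more widely, with BPL 3 the highest. BPH was higher by 1.68 on the log2 scale (SE 0.32, adjusted p = 0.0335), a 3.20-fold difference with a 95% confidence interval of 1.93 to 5.31. Another Fos probe set, 161716_at, lay under the filter and was not tested, with 262.5, 621.2 and 578.1 on BPH 1, 2 and 3 and 379.7, 368.7 and 265.4 on BPL 1, 2 and 3. Its strains overlapped, and without the filter its log2 difference was 0.45 (SE 0.40, adjusted p = 0.671).

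Klf4 encodes a zinc finger factor that acts in vessel and epithelial cells and in stem cells. Its tested probe set, 99622_at, had an intensity of 2215, 2122 and 2522 on BPH 1, 2 and 3, against 1197, 1309 and 902.6 on BPL 1, 2 and 3. The groups were separate, and unlike Fos and Junb the gene was lowest on BPL 3. Its log2 difference was 1.02 (SE 0.20, adjusted p = 0.0335), or 2.03-fold with a 95% confidence interval of 1.49 to 2.76. The other Klf4 probe set, 161185_i_at, lay below the floor of 201.3 on all 6 arrays and carries no comparison.

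Ier2, whose product is a small nuclear protein induced early after growth stimuli, had an intensity of 4941, 6032 and 7127 on BPH 1, 2 and 3, against 3172, 2622 and 3637 on BPL 1, 2 and 3. The lowest BPH array was above the highest BPL array. On the log2 scale BPH was higher by 0.94 (SE 0.18, adjusted p = 0.032), a 1.92-fold difference with a 95% confidence interval of 1.45 to 2.53. Ier2, Junb and Jund lie on mouse chromosome 8 in the RefSeq table, and Jun and Klf4 on chromosome 4.

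**Figure D2:**
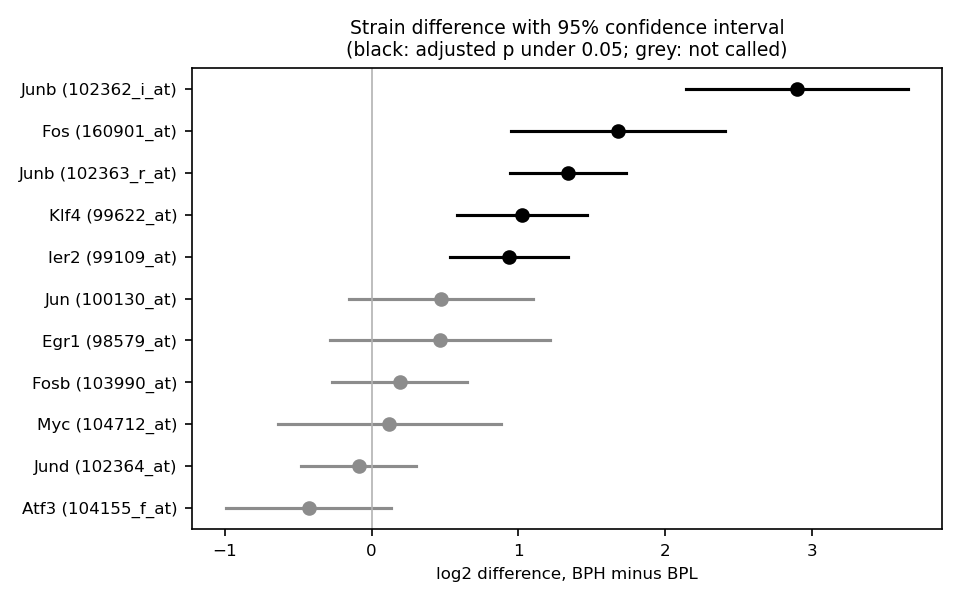
Log2 difference of each tested probe set (horizontal axis, BPH minus BPL) as a point with its 95% confidence interval, black where the adjusted p was under 0.05 and grey otherwise. The 5 called probe sets run from 0.94 for Ier2 to 2.90 for Junb, and the intervals of the other 6 include 0.

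The other Jun genes did not pass the test. Jun, which encodes c-Jun, had an intensity of 4919, 4457 and 6881 on BPH 1, 2 and 3, against 2591, 3811 and 5710.4 on BPL 1, 2 and 3. BPL 3 stood above BPH 1 and BPH 2, so the strains overlapped, with a log2 difference of 0.47 (SE 0.28, adjusted p = 0.384) and a fold between 0.897 and 2.15. Jund encodes a Jun protein that most tissues hold at rest and that is little induced by stimuli. It had an intensity of 43107, 34528 and 29381 on BPH 1, 2 and 3, against 31908, 38066 and 43276 on BPL 1, 2 and 3. Its strains overlapped, with a log2 difference of -0.09 (SE 0.17, adjusted p = 0.818) and a fold between 0.716 and 1.24.

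Fosb, a Fos relative whose transcripts also give a long-lived short form, had an intensity of 1773, 2324 and 2919.5 on BPH 1, 2 and 3, against 2229.8, 1823 and 1990.0 on BPL 1, 2 and 3. Its lowest and its highest value were both on BPH arrays. BPH minus BPL was 0.19 on the log2 scale (SE 0.20, adjusted p = 0.639) and the fold lay between 0.831 and 1.57.

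Whether relatives differed in their change was asked of the log2 difference between probe sets within each array, in 3 comparisons, with an exact two-sided permutation test that cannot go below p = 0.10 with 3 arrays against 3. Junb (102363_r_at) minus Jund was -2.74 ± 0.49 in BPH and -4.17 ± 0.16 in BPL (SD, n = 3 each), without overlap, a difference of 1.43 (exact permutation p = 0.1, 0.15 after Benjamini-Hochberg adjustment). Fosb minus Fos was -1.17 ± 0.26 in BPH and 0.32 ± 0.84 in BPL (SD, n = 3 each), also without overlap, a difference of -1.49 (exact permutation p = 0.1, 0.15 adjusted). Junb minus Jun was -0.01 ± 0.48 in BPH and -0.88 ± 0.45 in BPL (SD, n = 3 each), with overlap, a difference of 0.87 (exact permutation p = 0.2 before and after adjustment). No outcome of this test could have passed a threshold of 0.05.

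Egr1, a zinc finger factor known to activate the promoter of Pnmt in chromaffin cells, had an intensity of 4312, 6270.4 and 10760.3 on BPH 1, 2 and 3, against 4954, 3416 and 6527 on BPL 1, 2 and 3. BPH 3 alone stood above all BPL arrays. Its log2 difference was 0.47 (SE 0.33, adjusted p = 0.476), with a fold between 0.820 and 2.33. A further Egr1 probe set, 161802_i_at, lay under the filter, with 65.4, 711.5 and 904.1 on BPH 1, 2 and 3 and 460.6, 617.2 and 495 on BPL 1, 2 and 3.

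Atf3, which represses or activates stress genes as a dimer, pointed the other way without passing the test. Its tested probe set, 104155_f_at, had an intensity of 1519, 1548 and 2016 on BPH 1, 2 and 3, against 3037, 2412 and 1581 on BPL 1, 2 and 3. The suffix f marks probes that can also detect related sequences, and the strains overlapped. BPH minus BPL was -0.43 on the log2 scale (SE 0.25, adjusted p = 0.377) and the fold lay between 0.502 and 1.10. Under the filter, 104156_r_at had 525.6, 218.4 and 169.2 on BPH 1, 2 and 3 and 595.1, 1146 and 999 on BPL 1, 2 and 3. All BPH arrays were lower there, and without the filter its log2 difference was -1.63 (SE 0.49, adjusted p = 0.278). The third Atf3 probe set, 161645_r_at, lay below the floor on all 6 arrays.

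Myc, which drives growth and ribosome genes as a dimer with Max, lay just inside the filter with a mean log2 intensity of 9.41, where the filter stood at 9.38. It had an intensity of 596.8, 616.3 and 969.7 on BPH 1, 2 and 3, against 552.8, 617.6 and 813.1 on BPL 1, 2 and 3. The strains overlapped, with a log2 difference of 0.12 (SE 0.34, adjusted p = 0.876) and a fold between 0.641 and 1.84.

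For these genes the arrays of number 3 tended to be high within the strains. BPH 3 was the highest BPH array for 8 of the 11 tested probe sets, and BPL 3 the highest BPL array for 8 of the 11. For Egr1, Jun and Myc this spread within a strain was larger than the difference between the strain means. How often array 3 was the highest over all probe sets was not counted. It is therefore not known whether the 8 of 11 are particular to these genes, and both Junb probe sets are among the 11. BPH 3 and BPL 3 also had the lowest ratio of the 3′ to the 5′ beta-actin control probe sets, a sign of RNA integrity, at 1.72 and 1.75, while the other arrays had 2.13 and 2.15 in BPH and 2.21 and 2.02 in BPL. The medulla marker sum was 267460 on BPH 3, between those of BPH 1 and BPH 2, and 270245 on BPL 3, above those of BPL 1 and BPL 2. The part of RNA integrity and of medulla content in the members' order was not tested. The replicate numbers are names and carry no order.

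Both Junb probe sets were called with any 1 array left out. Fos lost its call without BPH 1, BPH 2, BPH 3 or BPL 2, Ier2 without BPH 2, BPH 3, BPL 1 or BPL 2, and Klf4 without BPH 1, BPH 2, BPH 3 or BPL 1. With BPH 1, BPH 2 or BPH 3 left out the number of called probe sets was 3, 2 and 2, and with BPL 1, BPL 2 or BPL 3 left out it was 3, 3 and 5. Without BPH 1 and BPL 2, the arrays with skeletal muscle transcripts, 3 were called, both Junb probe sets and Ier2. Fos and Klf4 lost their calls there with log2 differences of 1.79 and 1.15, no smaller than with all arrays. BPH 1 and BPH 2 were washed and stained on fluidics station 2, and BPH 3 and all BPL arrays on station 1. Within station 1, where BPH 3 alone faces the BPL arrays and is assumed to vary like them, the log2 difference was 2.94 and 1.33 for Junb, 1.74 for Fos, 1.19 for Ier2, 1.17 for Klf4 and 1.17 for Egr1. The station as a block gave the same differences, with 0 of 11 called by limma and 6 at an unadjusted p under 0.05 (8.91% of all probe sets), the adjusted p running from 0.0968 for Junb to 0.374 for Egr1 among these 6.

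**Figure D3:**
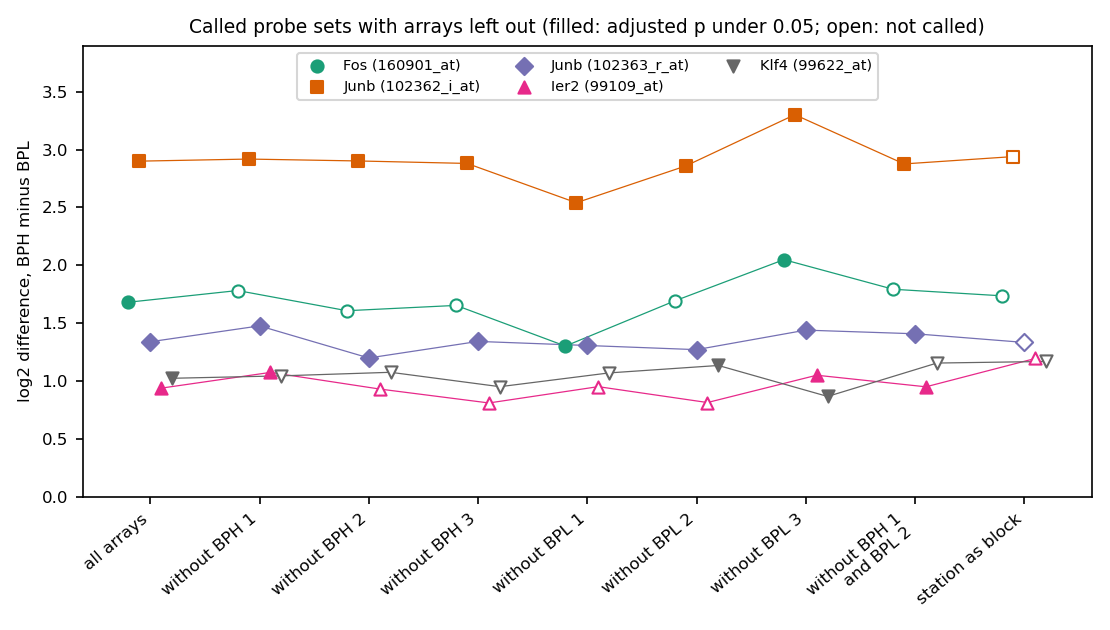
Log2 difference (vertical axis, BPH minus BPL) of the 5 called probe sets with all arrays, with each array left out, without both arrays that carried skeletal muscle transcripts, and with the fluidics station as a block, filled where the adjusted p was under 0.05. All differences stay above 0, both Junb probe sets keep their call when any array is left out, and none is called with the station as a block. The filter was applied on all 6 arrays before any was left out.

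Among other genes of the early response, calls were mostly towards higher values in BPH. The list of 45 such genes was fixed with earlier results of these arrays known, so its count describes these arrays and is no independent evidence. Of 36 tested, 15 were called higher and 1 lower, where 1.53% of 5555 genes were called higher and 0.9% lower, with each gene represented by its brightest tested probe set. An unadjusted p under 0.05 in limma was found for 20 of the 36, where 19.3% of all genes had one. The list median was 0.45 on the log2 scale, beside 0.04 for all genes. With the station as a block 2 of the 36 were called and within station 1 alone 1 was, all higher in BPH, while the median was 0.63 in both. The count was 1 without the filter, and with 1 array left out between 4 (without BPH 3) and 13 were called higher. Gadd45b, a stress-induced growth arrest gene, differed by 3.00 (SE 0.22, adjusted p = 0.000464), and the orphan receptor gene Nr4a1 by 2.36 (SE 0.24, adjusted p = 0.00246). Rgs2, a brake on G protein signalling, differed by 1.30 (SE 0.15, adjusted p = 0.00401), with an intensity of 27121, 33451 and 29282 on BPH 1, 2 and 3 against 13117, 9883 and 13610.1 on BPL 1, 2 and 3. Errfi1, a feedback inhibitor of the EGF receptor, was at 6182, 8585 and 8657 on BPH 1, 2 and 3 against 3383, 2487 and 2913 on BPL 1, 2 and 3, a log2 difference of 1.41 (SE 0.18, adjusted p = 0.00537). Neither gene had arrays that overlapped between the strains. The 1 gene called lower was Klf10, a zinc finger gene induced by TGF-beta, at 3311, 2847 and 2432 on BPH 1, 2 and 3 against 4637, 6274 and 5017 on BPL 1, 2 and 3. Its log2 difference was -0.89 (SE 0.17, adjusted p = 0.0319).

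**Figure D4:**
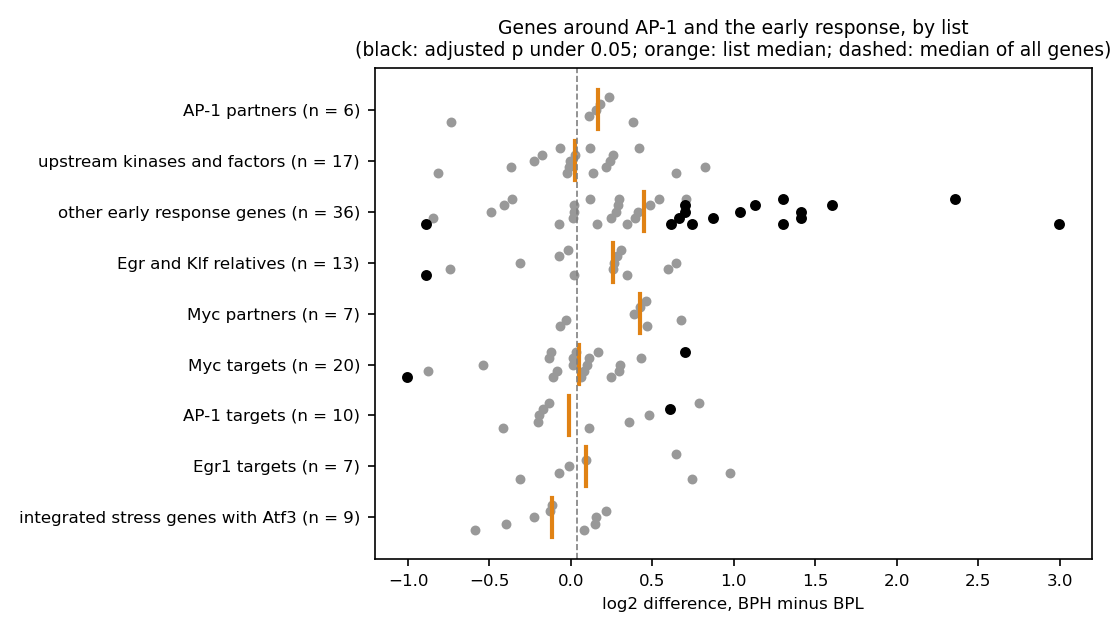
Log2 difference of each tested gene (horizontal axis, BPH minus BPL) in 9 lists around AP-1 and the early response, black where the adjusted p was under 0.05, with the list median in orange and the median of all genes as a dashed line at 0.04. The called genes lie mainly in the list of other early response genes, where 15 of 36 were called higher.

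The counts that follow for other lists of genes are to be read against the same shares of all 5555 genes, 1.53% called higher and 0.9% lower, and against 19.3% with an unadjusted p under 0.05 in either direction. Proteins that pair with Fos, Jun or Atf3 showed no called member among 6 tested, with a median log2 difference of 0.16 and 1 below an unadjusted p of 0.05. Fosl2, which encodes the Fos relative Fra-2, had the smallest p, with 538.2, 811.3 and 760.4 on BPH 1, 2 and 3 against 987.1, 1347 and 1147 on BPL 1, 2 and 3. All BPH arrays were below the BPL arrays, and the log2 difference of -0.73 did not pass (SE 0.27, adjusted p = 0.191). The small Maf gene Mafk (0.38), Atf2 (0.18) and the stress factor Atf4 (0.15) followed with log2 differences that did not pass.

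Among kinases and factors that act upstream of early response promoters, 0 of 17 were called by limma, 4 had an unadjusted p under 0.05 (19.3% of all genes), and the median was 0.03. The log2 difference was 0.64 for the coactivator gene Crebbp (SE 0.16, adjusted p = 0.0775) and 0.42 for Mapk8, which encodes the Jun kinase JNK1 (SE 0.14, adjusted p = 0.151). It was 0.82 for Crem, a cAMP-responsive factor with repressor forms (SE 0.31, adjusted p = 0.201), and -0.82 for Elk1, a partner of serum response factor (SE 0.32, adjusted p = 0.212). Crem had 2038, 4548 and 4518 on BPH 1, 2 and 3 against 2091, 1534 and 2368 on BPL 1, 2 and 3, so BPH 1 lay among the BPL arrays.

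Zinc finger relatives of Egr1 and Klf4, listed together with the Egr co-repressors Nab1 and Nab2, had a median log2 difference of 0.26 over 13 tested. An unadjusted p under 0.05 in limma was found for 5 of the 13 (19.3% of all genes). Klf10 was the 1 called member. The Egr co-repressors Nab2 (0.64, adjusted p = 0.176) and Nab1 (0.29, adjusted p = 0.234) and the erythroid factor Klf1 (-0.74, adjusted p = 0.233) were next by p and did not pass.

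Around Myc, 2 genes passed the test, both among its textbook targets. Of 7 tested partners and antagonists none was called by limma. Their median was 0.42, and 1 had an unadjusted p under 0.05. Max, the dimer partner of Myc, had 3777, 3923 and 3923 on BPH 1, 2 and 3 against 2858, 2597 and 3011 on BPL 1, 2 and 3. The strains were separate, and its log2 difference of 0.46 did not pass (SE 0.13, adjusted p = 0.093). Mxi1 (0.39), Fbxw7 (0.42) and Mycl (0.47) did not pass either. Of 20 tested Myc targets 18 were not called, 1 was called higher and 1 lower, where 1.53% of all genes were called higher and 0.9% lower, and the median was 0.05. An unadjusted p under 0.05 in limma was found for 4 of the 20 (19.3% of all genes). Counts this small are no result about the targets. Npm1, a nucleolar chaperone, was at 15661, 14637 and 14470 on BPH 1, 2 and 3 against 8253, 8139 and 11452 on BPL 1, 2 and 3, a log2 difference of 0.70 (SE 0.15, adjusted p = 0.0477). Cad, which starts pyrimidine synthesis, was at 1531, 1398 and 1185 on BPH 1, 2 and 3 against 2458, 3442 and 2423 on BPL 1, 2 and 3, a log2 difference of -1.01 (SE 0.19, adjusted p = 0.0339). The mitochondrial chaperonin gene Hspe1 (0.43) and the lactate dehydrogenase gene Ldha (-0.88) did not pass.

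Textbook targets of AP-1 had a median log2 difference of -0.01 over 10 tested, of which 5 were positive. An unadjusted p under 0.05 in limma was found for 4 of them (19.3% of all genes). Of the 10, 1 was called, higher in BPH, where 1.53% of all genes were. That gene was Penk, the enkephalin precursor gene, whose log2 difference was 0.61 (SE 0.13, adjusted p = 0.0472). The tyrosine hydroxylase gene Th, whose product starts the catecholamine pathway (0.78, adjusted p = 0.169), the cyclin gene Ccnd1 (0.48, adjusted p = 0.219) and the glutathione synthesis gene Gclm (0.36, adjusted p = 0.217) were not called. Of 7 tested Egr1 targets none was called by limma, 3 had an unadjusted p under 0.05 (19.3% of all genes), and the median was 0.09. Pnmt, which makes adrenaline from noradrenaline, showed 0.98 on the log2 scale (SE 0.24, adjusted p = 0.0729), fibronectin (Fn1) one of 0.74 (SE 0.21, adjusted p = 0.0947), and the growth factor gene Igf2 one of -0.31 (adjusted p = 0.34). Penk, Th and Pnmt are medulla genes, and the summed medulla markers, which include Th and Pnmt, were higher in BPH apart from BPL 3, as given above. Their part in these values was not tested.

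Genes of the integrated stress response, in which Atf3 takes part, showed 0 of 9 called by limma, 0 of them below an unadjusted p of 0.05, and a median of -0.12. In log2 differences these were -0.40 for Nupr1, -0.59 for Ddit3, which encodes the stress factor CHOP, 0.21 for Xbp1 and 0.15 for Atf4.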

How the data were processed

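The values deposited for the series are array intensities, not logged and already scaled by the authors, without detection calls. The program that produced them is not stated in the sources. The run files name the chip and the fluidics station and hold no measurement. All values below 201.3, the 20th percentile of the table, were raised to it before log2 was taken. The 66 control probe sets were dropped, as were those with a mean below the 40th percentile, 668.1, which left 7293. limma 3.58.1 (R 4.3.3) fitted BPH minus BPL to these with lmFit, then eBayes with a trend on intensity. Tests were two-sided, with calls where the adjusted p (Benjamini-Hochberg) was under 0.05. Means and SDs are of deposited intensities. Gene names are from the platform annotation; 10839 of 10855 single-gene probe sets had a RefSeq entry (GRCm38.p6) that gave the current symbol. The fit was tested on simulated data. The members, lists and tests were chosen with earlier results of these data known, and the motifs TGACG and TGACATCA after the promoters were seen. Named genes are all members and up to 4 genes of each list with the smallest p. Alternatives were other scalings, floors, filters, eBayes settings, blocks and left-out arrays.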

Additional observations from a re-analysis of the deposited data

How the results depend on the processing

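The number of member probe sets called (5 of 11) was 5 or 4 under quantile normalization, scaling to one median, the lower floor, the offset, robust estimation, averaging the probe sets of a gene and a required fold of at least 2. It was 3 of 8 with the filter at the 60th percentile and 2 of 11 without the intensity trend. The filter at the 60th percentile removed Klf4, Myc and the Junb probe set with the larger difference, so these were not tested there. The called probe sets that stayed in, those of Fos and Ier2 and the other of Junb, kept their calls. Without the filter the fit also held probe sets at the floor on all arrays, and the number called was 0 of 16. Of the 16, 6 had an unadjusted p under 0.05 in limma (13.6% of all probe sets). One of these 6, Atf3 104156_r_at, was lower in BPH (-1.63). Under the fluidics station block it was 0 of 11, with 6 at an unadjusted p under 0.05 (8.91% of all probe sets). All 6 were higher in BPH there, Egr1 among them. On station 1 alone the differences were those of the block. Without BPH 1 and BPL 2, an alternative chosen after seeing the data, the number of member probe sets called was 3. Over all probe sets the count of 184 was 52 without the filter, 83 without the trend, 18 under the station block and 7 on station 1 alone. Among genes of the 9 lists 19 of 120 were called, and 1 without the filter, 6 without the trend, 11 with the replicate number as a block, 2 under the station block and 1 on station 1 alone. Leaving out 1 array gave 2 to 5 member probe sets, 4 to 19 list genes (4 without BPH 3) and 42 to 361 probe sets in all (42 without BPH 2, 361 without BPL 3). With 1 array left out Jund ran from -0.23 to 0.043 on the log2 scale, positive without BPH 3 (0.043) and BPL 3 (0.016), and Myc from -0.11 without BPH 3 to 0.28. Egr1 ran from 0.12 (without BPH 3) to 0.78 (without BPH 1), Jun from 0.19 (without BPL 1) to 0.76 (without BPL 3), Fosb from 0.016 (without BPH 3) to 0.38 (without BPH 1) and Atf3 from -0.69 (without BPL 3) to -0.22 (without BPL 1). None of these 6 genes was called in any such fit. Fewer arrays or degrees of freedom and more tested probe sets enter some of these settings by construction; for the others the cause was not tested. Same-numbered arrays did not deviate together (r of -0.22, -0.08 and 0.01 across probe sets), so the numbers were not taken as pairs, and the replicate block gave 4 called member probe sets, Klf4 being lost, and 124 in all. For signal near background only a floor could be set, so both probe sets that lay below it on all arrays carry no comparison.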
